A study of Homo sapiens with 2 samples.

Results

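The cells described here are those in which more than 7500 genes were detected, a gene counting as detected when it had at least 1 unique molecular identifier (UMI, a tag that marks 1 captured transcript), and in which mitochondrial transcripts made up at most 25% of UMIs. They were thus chosen by a measured value, the number of detected genes. They numbered 1012 of 3802 cells (26.6%) of the WT library and 1265 of 6221 (20.3%) of the GATA3 KO library, or 2277 of 10023 in all. Every cell with more than 7500 genes passed the mitochondrial limit. They were set beside the 1841 and 3487 cells of the same libraries with 5000 to 7500 genes under the same mitochondrial limit. The methods of the study name 7500 genes and 25% mitochondrial content as limits for removal. They were read here as separate limits, since no cell in either library was past both, and the question was which cells, by cell cycle and by lineage, a limit of 7500 genes takes away.

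Both libraries were single-cell RNA sequencing of the human embryonic stem cell (hESC) line H1, a long-established line, grown on Matrigel in mTeSR1 with 50 ng/ml bone morphogenetic protein 4 (BMP4) for 48 h. The WT cells were H1. The GATA3 KO cells were line KO-GATA3-06, 1 clone with targeted GATA3 that was derived from H1 with an inducible Cas9 cassette at AAVS1, so that clone, cassette and genotype cannot be told apart. The treatment text of the WT library gives 1 h of BMP4, against 48 h in its title and recorded duration, and 48 h was used. Each group was 1 library, so nothing could be tested between replicates and the intervals (95%, exact) cover counting error only. The 2 libraries shared 8 barcodes, carried by 3 of the WT and 1 of the GATA3 KO cells above 7500 genes.

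A cell that moves from DNA synthesis (S phase) through G2 to mitosis (M) grows, doubles its DNA and switches from replication genes to mitotic genes. BMP4 drives hESCs out of pluripotency, towards primitive streak cells, which give rise to mesoderm and endoderm and are marked by TBXT, MIXL1 and EOMES, or towards extraembryonic cells of amnion or trophectoderm type, marked by GATA3, GATA2, TFAP2A, HAND1 and ISL1. SOX2 is kept by pluripotent and ectoderm-leaning cells. A droplet that catches a pair of cells also yields many genes, and can show markers of more than one lineage.

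The cells above 7500 genes were first of all deeper cells. Their median was 87070.5 UMIs in WT, against 49884 in the comparison cells (1.75 times), and 80099 against 46787 in GATA3 KO (1.71 times). They held 48.9% and 36.5% of all UMIs of their libraries. The deep tail was longer in WT, where 178 cells (17.6%, 15.3 to 20.1) passed 120000 UMIs and the deepest had 400531, than in GATA3 KO, where 16 cells (1.26%, 0.725 to 2.05) passed and the deepest had 148674. Detected genes chose the cells and follow UMIs, so these values describe the choice. On either side of the limit the values lay close together. Cells with 7401 to 7500 genes had median UMIs of 66528 in WT and 63037.5 in GATA3 KO, and cells with 7501 to 7600 genes had 68867 and 65428.

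To compare cells at equal depth, each was thinned at random to 20000 UMIs, which every cell of both groups could supply. Most of the gap in detected genes then closed. The median was 4446 genes above the limit and 4282 below it in WT (1.04 times), and 4486 and 4415 in GATA3 KO (1.02 times). The mitochondrial share was much the same in both groups, with medians of 12.0% and 11.4% in WT and 11.4% and 11.1% in GATA3 KO, and so was the share of the 50 most abundant genes, at 31.0% and 30.6% in WT and 30.2% and 29.7% in GATA3 KO. Thinned cells still came from droplets of unlike depth, so a further comparison at like depth used only cells of 60000 to 75000 UMIs, a window chosen after seeing the data. It held 277 WT cells above and 356 below the limit, and 421 and 344 GATA3 KO cells.

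**Figure D1:**
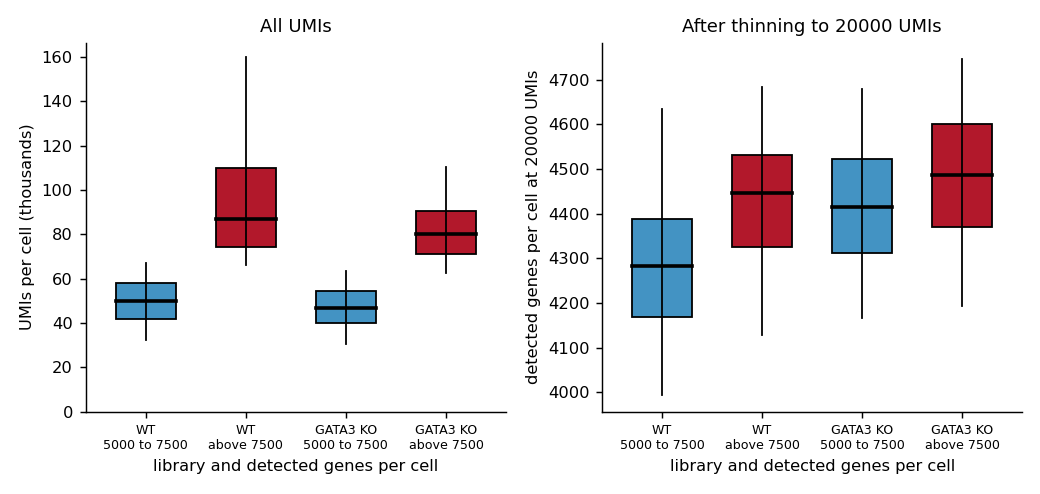
UMIs per cell (left, axis in units of 1000) and detected genes per cell after thinning to 20000 UMIs (right) for cells of 5000 to 7500 genes (blue) and above 7500 genes (red), by library; lines in the boxes are medians, boxes the middle 50% of cells and whiskers the 5th to 95th percentile, and the right axis does not start at 0. The median UMIs above the limit were 87070.5 in WT and 80099 in GATA3 KO, while at equal UMIs the medians of detected genes differed by 1.04 and 1.02 times.

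Mitotic genes were higher in cells above 7500 genes in both libraries. Levels are given as CPM, UMIs scaled to a total of 1000000, of the summed thinned UMIs, and ratios as log2 of the level above the limit over that in the comparison cells, with 1 CPM added to each. A list of 54 G2/M genes summed to 6463 CPM above the limit and 5243 CPM below it in WT (log2 ratio 0.30, 0.29 to 0.31), and to 6361 and 5552 CPM in GATA3 KO (0.20, 0.19 to 0.20). At like depth the list was at 0.20 and 0.16. Over all cells, the ratio was above 0 for 50 of the 54 genes in WT and 48 in GATA3 KO. At least 1.5-fold higher were 8 of the 50 genes that reached 20 CPM in WT and 0 of 50 in GATA3 KO, where over all genes at that level 0.507% and 0% were higher. Here and below, a gene reached a level when the group in which it was higher did. HJURP reached 20 CPM in the WT cells above the limit alone.

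TOP2A, which untangles DNA before chromosomes separate (chromosome 17, 40388525 to 40417896 in GRCh38), was at 343.8 CPM above the limit and 185.8 CPM below it in WT, a log2 ratio of 0.88 (0.84 to 0.93). In GATA3 KO it was at 326.8 and 225.8 CPM, a log2 ratio of 0.53 (0.49 to 0.57). CENPE, a kinetochore motor, had log2 ratios of 0.81 and 0.48, and MKI67, which coats mitotic chromosomes, of 0.70 and 0.45. The kinetochore gene CENPF had 0.67 and 0.37, and the spindle assembly factor TPX2 had 0.64 and 0.45. Each of these was greater in WT than in GATA3 KO, and the difference between the libraries was not tested. UBE2C, which marks mitotic proteins for degradation, had 0.71 and 0.46. Also higher in both libraries were DEPDC1 (0.59 and 0.51), the p53-binding mitotic protein GTSE1 (0.50 and 0.43), the mitotic kinase PLK1 (0.66 and 0.41) and the chromosome motor KIF4A (0.53 and 0.40). At like depth TOP2A was at 0.37 and 0.22, UBE2C at 0.23 and 0.06, and PLK1 at 0.45 and -0.02.

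Replication genes lay on the other side. A list of 43 S phase genes summed to 2943 CPM above the limit and 3335 CPM below it in WT (log2 ratio -0.18, -0.19 to -0.17), and to 3664 and 4120 CPM in GATA3 KO (-0.17, -0.18 to -0.16). That difference did not hold at like depth, where the list was at -0.02 in WT and turned to 0.17 in GATA3 KO. Over all cells, the ratio was above 0 in only 6 of the 42 S phase genes that reached 5 CPM in WT and in 4 of 41 in GATA3 KO. CDC45, a part of the replicative helicase, had log2 ratios of -0.78 (-0.97 to -0.58) and -0.40 (-0.56 to -0.24), and it was the 1 gene past 1.5-fold lower in WT among the 36 S phase genes that reached 20 CPM, where the share over all genes at that level was 0.0939%. CCNE2, a cyclin of the entry to S phase that lay under that level, was at 3.16 and 6.65 CPM in WT (-0.88, -1.20 to -0.56) and at -0.14 in GATA3 KO. The related cyclin CCNE1 had -0.45 and -0.31, the flap endonuclease FEN1 -0.48 and -0.40, and NASP, a histone chaperone, -0.17 and -0.20. At like depth CDC45 was at -0.84 and 0.02, CCNE1 at -0.40 and 0.16, FEN1 at -0.42 and 0.10 and NASP at 0.05 and 0.34. HIST1H1D, a linker histone gene, was the lowest of the genes that reached 20 CPM, at 27.5 against 50.1 CPM in WT (-0.84) and 15.2 against 26.0 CPM in GATA3 KO (-0.74), where it was the only gene at that level past 1.5-fold lower (0.0187% of genes). At like depth it was at -0.71 and -0.22. Most histone transcripts lack the poly(A) tail by which these libraries capture RNA, so histone levels here reflect the captured part only.

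Levels varied with gene number on both sides of the limit. The G2/M level in WT was 4602 CPM in cells of 5000 to 5500 genes, 6398 CPM in those of 7000 to 7500 and 7093 CPM in those of 7500 to 8000, and lower again, at 5722 CPM, in the 250 cells above 9000 genes. In GATA3 KO the highest level, 6838 CPM, was in cells of 7000 to 7500 genes, below the limit. With cells above 8500 genes left out, the log2 ratio of the G2/M list was 0.41 in WT and 0.20 in GATA3 KO.

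**Figure D2:**
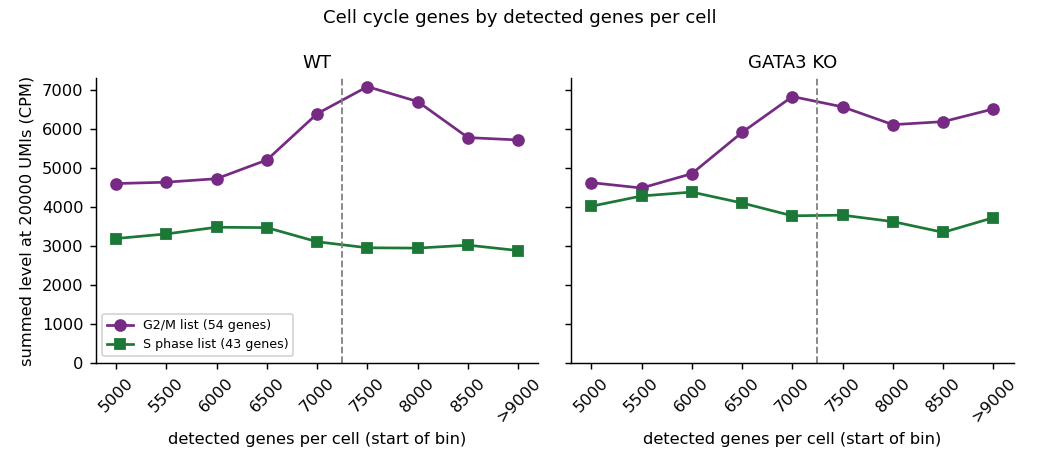
Summed level (CPM at 20000 UMIs) of the 54 G2/M genes (circles) and 43 S phase genes (squares) by detected genes per cell, in bins of 500 genes with all cells above 9000 in the last, with WT on the left and GATA3 KO on the right; the dashed line is the limit of 7500 genes. The G2/M level reached 7093 CPM just above the limit in WT and 6838 CPM just below it in GATA3 KO, and the S phase level in WT was 3480 CPM at 6000 to 6500 genes and 2880 CPM above 9000.

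Phase calls per cell, made from the same S phase and G2/M lists on the same thinned cells, gave the same order. They are no separate evidence, and no phase shares are given at like depth. At 20000 UMIs, G2M was called in 80.4% (77.9 to 82.8) of the WT cells above the limit and 47.6% (45.3 to 49.9) of the comparison cells, a difference of 32.8 percentage points (29.3 to 36.1). In GATA3 KO the shares were 63.9% (61.2 to 66.5) and 39.1% (37.4 to 40.7), a difference of 24.8 points (21.6 to 27.9). G1 was called in 1 and 2 WT cells and 1 and 1 GATA3 KO cells, so the calls in effect divide S from G2M, and no cycling or absence of G1 is read from them. Of the cells above the limit, 133 in WT (13.1%) and 256 in GATA3 KO (20.2%) lay within 0.05 of a boundary between calls. A limit at 7500 genes thus took 48.1% of the G2M-called and 17.0% of the S-called WT cells with at least 5000 genes, and 37.2% and 17.7% in GATA3 KO.

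Some ribosome biogenesis and pluripotency genes also differed in the same direction in both libraries, not all of them at like depth. Of 18 ribosome biogenesis genes the sum was lower in cells above the limit, with log2 ratios of -0.19 in WT and -0.10 in GATA3 KO. NPM1, the nucleolar chaperone that is the most abundant of them, was at 2994 and 3651 CPM in WT (-0.29) and at 2544 and 2887 CPM in GATA3 KO (-0.18), while POLR1A, the large subunit of RNA polymerase I, was higher (0.31 and 0.25). HSPA5, the chaperone of the endoplasmic reticulum, was at 324.8 and 463.4 CPM in WT (-0.51) and 323.0 and 419.1 CPM in GATA3 KO (-0.37). At like depth NPM1 was at -0.14 in WT and 0.04 in GATA3 KO, the nucleolar protein gene NCL at 0.14 and 0.49, POLR1A at 0.46 and 0.28, and HSPA5 at -0.34 and 0.07. Of the pluripotency genes, the transcription factor NANOG (0.40 and 0.15) and LIN28A, which blocks let-7 maturation (0.31 and 0.24), were higher above the limit in both libraries, and POU5F1, whose reads can be split with its near-identical pseudogenes, was at 0.08 and -0.04. Other genes of that list went either way, with L1TD1 at 0.09 in both, TERF1 at -0.06 and -0.03, and TDGF1 at 0.04 and -0.08. NANOG was at 0.35 and 0.10 at like depth, and LIN28A at 0.31 and 0.19. Across the 4871 genes of at least 20 CPM in both libraries, the ratios of WT and GATA3 KO had a Pearson r of 0.67 and a Spearman rho of 0.64. These points are genes, which are not independent replicates.

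In WT the extraembryonic genes were higher above the limit, and in GATA3 KO they were level. The difference between the libraries was not tested, and at like depth these genes were lower above the limit in both. HAND1, a transcription factor of extraembryonic mesoderm, amnion and trophoblast (chromosome 5, 154474972 to 154478227), was at 21.6 CPM above and 9.64 CPM below the limit in WT, a log2 ratio of 1.09 (0.90 to 1.28), and at 11.2 CPM in both groups of GATA3 KO (0.00, -0.18 to 0.18). GATA3 itself (chromosome 10, 8045378 to 8075198) was at 20.4 and 11.7 CPM in WT (0.75, 0.56 to 0.93) and at 10.1 and 9.94 CPM in GATA3 KO (0.02). Counts of its 3′ end give no information on the targeted coding sequence, so they check no label. TFAP2A, a trophectoderm and surface ectoderm factor, was at 24.9 and 15.6 CPM in WT (0.64, 0.47 to 0.81) and at 37.5 and 37.1 CPM in GATA3 KO (0.02). ISL1, an amnion and cardiac progenitor factor, was at 8.0 and 4.43 CPM in WT and at 2.13 and 2.74 CPM in GATA3 KO.

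Together with GATA2, these 5 genes summed to 78.1 and 43.3 CPM in WT (log2 ratio 0.84, 0.74 to 0.94) and to 67.9 and 68.6 CPM in GATA3 KO (-0.01, -0.09 to 0.06). In WT, 67.4% of all their UMIs in the library, from all cells, came from the cells above the limit, which held 48.9% of UMIs overall. In GATA3 KO the share was 36.1%, against 36.5% overall. The other WT genes past 1.5-fold higher included BMP4 (43.4 and 25.5 CPM, 0.75), the matrix gene FN1 (163.6 and 102.1 CPM, 0.68), the natriuretic peptide gene NPPB (40.9 and 18.1 CPM, 1.13), ANKRD1, a target of YAP signalling (23.4 and 10.4 CPM, 1.10), and the cardiac actin gene ACTC1 (200.7 and 110.0 CPM, 0.86). Each of these turned at like depth, where in WT BMP4 was at -0.33, FN1 at -0.52, NPPB at -1.85, ANKRD1 at -2.49 and ACTC1 at -0.45. In all, 27 WT genes of at least 20 CPM were past 1.5-fold higher (0.507%) and 5 were past 1.5-fold lower. Of those higher, 8 were in the G2/M list and 4 were among the 8 genes of the amnion/trophectoderm list that reached 20 CPM. Of these 4, HAND1, GATA3 and TFAP2A reached 20 CPM in the cells above the limit alone. That count thus follows in part from the filter, and no enrichment is read from it. The whole amnion/trophectoderm list of 21 genes differed less, with a log2 ratio of the sum of 0.14 in WT (0.12 to 0.16) and -0.02 in GATA3 KO. In WT the keratin gene KRT19 in it was at -0.13 and TFAP2C at 0.05. Scaled by the trimmed mean of M values (TMM), the counts were 18 and 7.

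The WT excess of extraembryonic genes was largest in the cells of most genes, and without the cells above 8500 genes the log2 ratio of the 5 genes was 0.47. HAND1 was at 6.15 CPM (4.65 to 7.99) in cells of 7000 to 7500 genes, 18.3 CPM (15.4 to 21.6) in those of 7500 to 8000, much the same in the next bin, 17.1 CPM in those of 8500 to 9000, and 32.8 CPM (28.0 to 38.2) in the 250 cells above 9000. GATA3 in the same bins was at 11.5, 14.9, 16.9, 20.5 and 31.8 CPM. ISL1 in the same bins was at 3.19, 5.63, 5.25, 3.73 and 16.8 CPM, so that it stood out in the last bin. The cells of fewest genes were not the lowest, with HAND1 at 16.7 CPM in cells of 5000 to 5500 genes. ISL1 was at 10.4 CPM in those of 5500 to 6000. In GATA3 KO, HAND1 stayed between 6.38 and 13.8 CPM and GATA3 between 8.33 and 11.2 CPM over all bins.

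**Figure D3:**
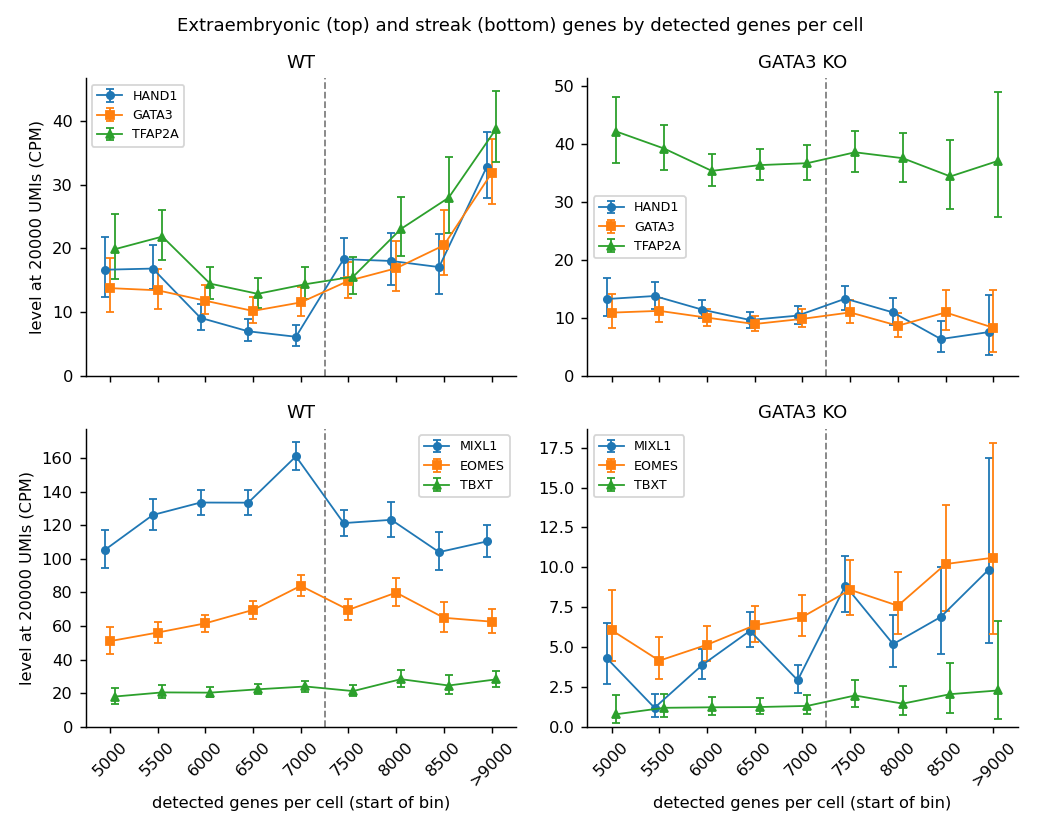
Levels (CPM at 20000 UMIs, with exact Poisson 95% intervals) of HAND1, GATA3 and TFAP2A (top) and of MIXL1, EOMES and TBXT (bottom) by detected genes per cell, with WT on the left and GATA3 KO on the right, each panel with its own axis from 0; the dashed line is the limit of 7500 genes. HAND1 in WT was at 6.15 CPM just below the limit, between 17.1 and 18.3 CPM from 7500 to 9000 genes and at 32.8 CPM above 9000, and in GATA3 KO between 6.38 and 13.8 CPM over all bins.

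That direction turned when cells of like depth were compared. Among cells of 60000 to 75000 UMIs the log2 ratio of the 5 extraembryonic genes was -1.16 in WT and -1.52 in GATA3 KO. HAND1 was at -1.36 and -2.69, and SOX2 at 0.68 and 0.49. A narrower window, from the 5th percentile of the cells above the limit to the 95th percentile of those below, gave -1.36 and -2.54 for the 5 genes with 17 and 25 WT cells and 28 and 53 GATA3 KO cells. Cells positive for the extraembryonic genes alone, defined below, yielded fewer genes at 20000 UMIs, with medians of 4163 in WT and 4350 in GATA3 KO, than cells positive for SOX2 alone, with 4379.5 and 4442. In WT they were also deeper, with a median of 68065.5 UMIs against 57311. The part of these values in both directions was not tested.

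**Figure D4:**
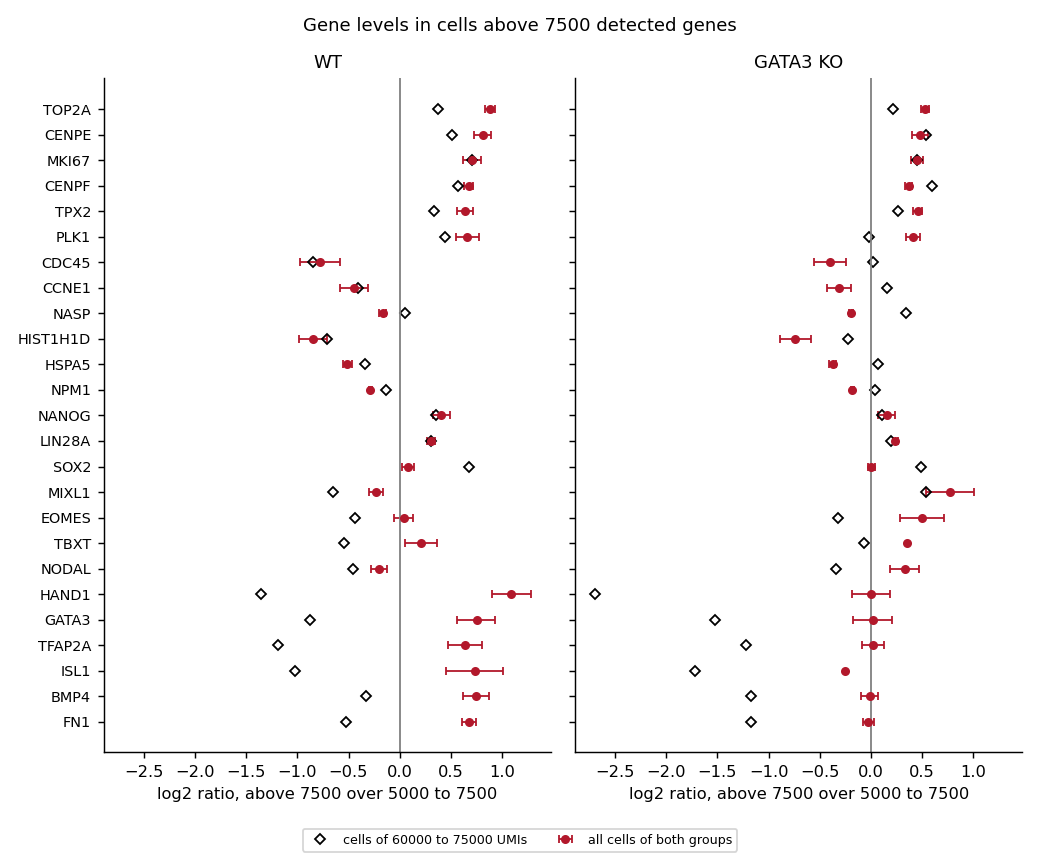
Log2 ratio of gene levels in cells above 7500 detected genes over cells of 5000 to 7500, for 25 genes, with WT on the left and GATA3 KO on the right; red points are all cells of both groups with exact binomial 95% intervals (not drawn for genes under 5 CPM), and open diamonds are cells of 60000 to 75000 UMIs alone. The mitotic genes at the top mostly stayed above 0 in both, with PLK1 in GATA3 KO at -0.02, while HAND1 in WT went from 1.09 to -1.36.

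The streak gene MIXL1 and the sum of MIXL1, EOMES and TBXT showed the reverse contrast between libraries. TBXT singly was higher above the limit in both, and EOMES was level in WT. MIXL1, a homeobox gene of the streak (chromosome 1, 226223618 to 226227060), was at 116.3 CPM above and 136.9 CPM below the limit in WT (log2 ratio -0.23, -0.30 to -0.16), and at 7.39 and 3.91 CPM in GATA3 KO (0.77, 0.54 to 1.00). EOMES, a T-box factor of streak and endoderm, was at 69.4 and 67.5 CPM in WT, where the levels hardly differed, and at 8.62 and 5.82 CPM in GATA3 KO (0.50). TBXT, the T-box factor brachyury, was at 25 and 21.5 CPM in WT (0.21, 0.05 to 0.36) and at 1.82 and 1.20 CPM in GATA3 KO (0.35, 0.02 to 0.68). Their sum had log2 ratios of -0.10 (-0.15 to -0.05) and 0.66 (0.50 to 0.82). In the window of 60000 to 75000 UMIs these were -0.58 and -0.02, so the GATA3 KO excess of the sum was not seen at like depth. MIXL1 singly was at -0.65 and 0.53 there, and at -0.38 and -0.90 in the narrower window. Also lower above the limit in WT were CER1, a secreted NODAL and BMP inhibitor (40.9 and 71.2 CPM, -0.79), NODAL, the streak-inducing ligand (88.1 and 101.4 CPM, -0.20), and MESP1, a factor of nascent mesoderm (9.49 and 16.9 CPM, -0.78). CER1 was at 0.48 in the window in WT.

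SOX2 and the sum of the ectoderm genes differed little by gene number over all cells. SOX2 (chromosome 3, 181711925 to 181714436) was at 163.3 and 154.4 CPM in WT (log2 ratio 0.08, 0.02 to 0.14) and at 397.1 and 396.0 CPM in GATA3 KO (0.00, -0.03 to 0.04). A list of 16 early ectoderm genes had log2 ratios of -0.05 and -0.03. Within it, SFRP1, a secreted WNT inhibitor, was at -0.25 in WT and -0.03 in GATA3 KO. The largest ratios in WT were those of SOX3, a relative of SOX2, at 0.43 (0.16 to 0.70) in WT and 0.00 in GATA3 KO, and of the homeobox gene IRX2, at 0.32 (0.20 to 0.43) and 0.09. At like depth these genes were higher above the limit with 1 exception, SOX3 in GATA3 KO at -0.04. SOX2 was at 0.68 and 0.49 there, SFRP1 at 0.98 and 0.61, IRX2 at 0.68 and 0.41, and SOX3 in WT at 1.02.

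The summed markers of other cells that such a culture could hold differed little between the groups, with exceptions. These were the blood and endothelium list and, in GATA3 KO, the germ cell list, which was lower above the limit. The germ cell list was at 34 and 34.5 CPM in WT and 17.7 and 20.1 CPM in GATA3 KO, the endoderm list at 82.0 and 86.0 CPM and at 132.0 and 136.2 CPM, and the mesenchyme list at 281.2 and 280.1 CPM and at 391.1 and 405.5 CPM. These sums were mostly APELA (endoderm) and VIM and COL1A2 (mesenchyme), and other members differed in WT. The endoderm factor GATA6 was at 4.69 and 8.34 CPM (-0.71, with an interval under 0), POSTN, a matrix gene of mesenchyme, at 22.8 and 13.0 CPM (0.76, 0.58 to 0.94), and the mesenchyme factor TWIST1, at 3.31 and 1.96 CPM, at 0.54. At like depth POSTN turned to -0.91 and TWIST1 to -1.48, while GATA6 was at -0.69. The blood and endothelium list was higher in both, at 109.8 and 96.4 CPM (log2 ratio 0.19) and at 61.5 and 52.7 CPM (0.22), most of it KDR, a VEGF receptor that early mesoderm also carries (95.8 and 83.6 CPM in WT). The p53 target list was at -0.02 and 0.01. MALAT1, a nuclear RNA, was higher in WT (3972 and 3254 CPM, 0.29) and not in GATA3 KO (2207 and 2283 CPM, -0.05).

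For each cell, 3 marker classes were set on thinned counts: streak-positive with at least 2 summed UMIs of TBXT, MIXL1 and EOMES, extraembryonic-positive with at least 2 of HAND1, ISL1, GATA3, GATA2 and TFAP2A, and SOX2-positive with at least 4 of SOX2. Extraembryonic-positive cells made up 19.5% (17.1 to 22.0) of WT cells above the limit and 14.2% (12.7 to 15.9) below it, a difference of 5.24 points (2.31 to 8.25). In GATA3 KO the shares were 20.5% and 18.3%, a difference of 2.18 points (-0.38 to 4.83). Streak-positive cells made up 45.5% and 42% in WT (difference 3.47 points, -0.39 to 7.33) and 5.85% and 3.64% in GATA3 KO (2.21 points, 0.805 to 3.77). SOX2-positive cells made up 38.9% and 36.3% in WT and 80.3% and 78.8% in GATA3 KO, and both differences had intervals that included 0. Cells of no class were fewer above the limit in WT, at 11.8% against 18.4%, and were at 5.53% against 6.83% in GATA3 KO.

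Over all cells, mixed-lineage cells were more frequent above 7500 genes for each pair of classes, though for several pairs within counting error. Among cells above the limit with 60000 to 75000 UMIs, most shares were lower. Streak with SOX2 was at 3.25% in WT and 0.95% in GATA3 KO there, and streak with extraembryonic at 5.78% and 0.95%. Extraembryonic with SOX2 was at 0.361% and 8.08%. Shares of comparison cells in that window are not given, so the excess is not shown at like depth. Streak-positive and SOX2-positive together were 56 WT cells (5.53%, 4.21 to 7.13) above the limit and 59 (3.20%, 2.45 to 4.12) below it, a difference of 2.33 points (0.72 to 4.09). In GATA3 KO they were 37 (2.92%, 2.07 to 4.01) and 45 (1.29%, 0.943 to 1.72), a difference of 1.63 points (0.674 to 2.77). Extraembryonic-positive and SOX2-positive together were 105 GATA3 KO cells (8.30%, 6.84 to 9.96) and 188 (5.39%, 4.67 to 6.19), a difference of 2.91 points (1.24 to 4.72), and only 13 (1.28%) and 14 (0.760%) in WT, a difference of 0.524 points (-0.264 to 1.49). Streak-positive and extraembryonic-positive together were 92 WT cells (9.09%) and 133 (7.22%), a difference of 1.87 points (-0.261 to 4.12), and 21 (1.66%) and 38 (1.09%) in GATA3 KO, a difference of 0.57 points (-0.177 to 1.49).

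Pairs with SOX2 were rarer than the product of their shares, in both groups, and less so above the limit. For streak with SOX2 the share was 0.313 of the product above and 0.210 below the limit in WT, and 0.623 and 0.450 in GATA3 KO. For extraembryonic with SOX2 it was 0.170 and 0.147 in WT, and 0.505 and 0.374 in GATA3 KO. Streak with extraembryonic, by contrast, was near or over the product, at 1.03 and 1.21 in WT and 1.39 and 1.64 in GATA3 KO, and lower above the limit than below it.

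**Figure D5:**
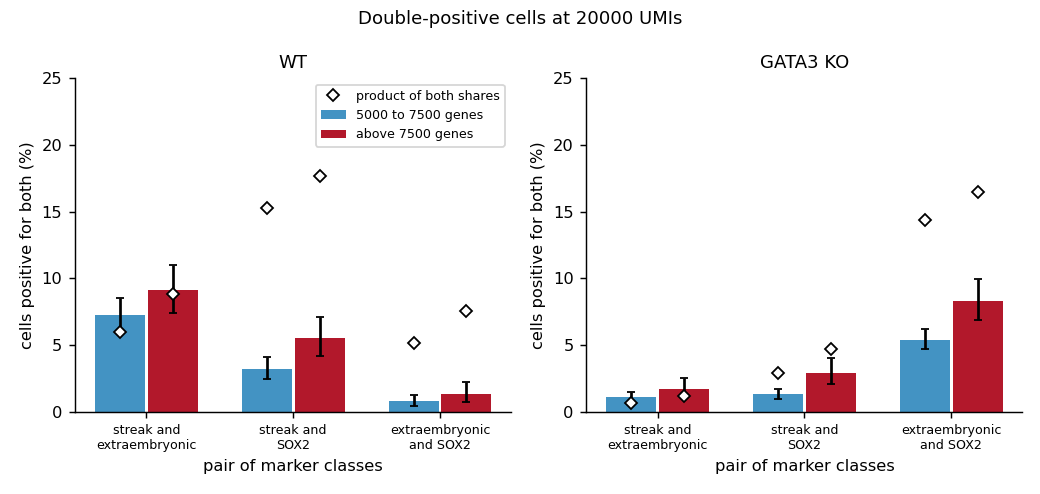
Share of cells positive for both of a pair of marker classes at 20000 UMIs, below (blue) and above (red) 7500 genes, with WT on the left and GATA3 KO on the right; bars carry exact Clopper-Pearson 95% intervals, and diamonds are the product of the shares of both classes. Streak with SOX2 was at 3.20% and 5.53% in WT and at 1.29% and 2.92% in GATA3 KO, under the product in each.

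Free RNA in the droplets can add to such shares and was not measured. The shares were set beside those of SOX2-positive cells with no NANOG UMI after thinning (NANOG-negative cells). Such cells can hold NANOG UMIs in their full counts. All WT cells above the limit together held 2000 NANOG UMIs after thinning and 9233 before it. Of these, 5.43% of 92 WT cells above the limit (median 79312.5 UMIs) and 2.07% of 242 below it (47153 UMIs) were streak-positive, and 0.806% of 372 and 0.357% of 1121 in GATA3 KO (79335 and 46032 UMIs). Over all SOX2-positive cells, streak-positive were 14.2% (56 of 394) and 8.82% (59 of 669) in WT and 3.64% (37 of 1016) and 1.64% (45 of 2746) in GATA3 KO. Each was above the share of the NANOG-negative cells, though the WT intervals above the limit (10.9 to 18.1 and 1.79 to 12.2) overlapped. Extraembryonic-positive were 3.26% and 1.65% of the NANOG-negative WT cells, and 11.8% and 5.80% of those in GATA3 KO. Over all SOX2-positive cells they were 3.30% (13 of 394) and 2.09% (14 of 669) in WT and 10.3% (105 of 1016) and 6.85% (188 of 2746) in GATA3 KO. Above the limit these shares lay at or under those of the NANOG-negative cells or within their counting error. Whether NANOG-negative cells lack streak or extraembryonic transcript is not known. They thus set no floor for either pair, and no co-expression is read from these shares.

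Cells positive for streak and SOX2 were deeper than those positive for either alone. Above the limit in WT, streak with SOX2 cells had a median of 100277 UMIs, against 85606 in cells positive for streak alone and 82167.5 for SOX2 alone, and in GATA3 KO 92167 against 79086 and 79008. Among the comparison cells the WT order was the other way, at 45297 against 51601 and 48553. The share of streak with SOX2 went from 2.62% (1.26 to 4.76) in WT cells of 7500 to 8000 genes to 7.60% (4.64 to 11.6) above 9000, and from 1.53% (0.702 to 2.89) to 7.58% (2.51 to 16.8) in GATA3 KO.

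Genes that had no part in the classes lay between the single-positive cells in these doubles. In WT cells above the limit, 13 other streak genes summed to 348.2 CPM (314.5 to 384.5) in streak with SOX2 cells, 500.5 CPM in streak alone and 72.7 CPM in SOX2 alone, and 16 early ectoderm genes to 656.2, 513.3 and 892.5 CPM. In GATA3 KO the streak genes summed to 273.0, 324.0 and 19.7 CPM. For extraembryonic with SOX2 in GATA3 KO, 16 other amnion/trophectoderm genes summed to 2214 CPM, against 5142 CPM in extraembryonic alone and 1049 CPM in SOX2 alone. Below the limit the same 3 values were 2019, 5601 and 1050 CPM.

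Scrublet, which scores cells by their likeness to simulated pairs, called only 1 WT and 2 GATA3 KO barcodes as doublets, too few to use as calls. Among the cells with the highest scores, taken at 0.8% per 1000 cells, were 59 (5.83%) of the WT cells above the limit and 56 (3.04%) of the comparison cells, and 136 (10.8%) and 157 (4.5%) in GATA3 KO. Without them, streak with SOX2 cells above the limit made up 5.46% in WT and 3.10% in GATA3 KO, and extraembryonic with SOX2 cells 6.55% in GATA3 KO. The part of doublets and of free RNA in the mixed-lineage shares was not tested.

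The ratio between the libraries depended on which gene-number group was compared. The 5 extraembryonic genes had a log2 ratio of GATA3 KO over WT of -0.20 (-0.30 to -0.10) among cells above the limit and of 0.65 (0.57 to 0.73) among cells of 5000 to 7500 genes. The members split. GATA3 was at -0.95 and -0.22, HAND1 at -0.89 and 0.19 and ISL1 at -1.52 and -0.54. GATA2, at 0.94 and 1.62, and TFAP2A, at 0.57 and 1.20, were higher in GATA3 KO in both groups. BMP4, which is not among the 5, was at 0.52 and 1.27. MIXL1 was far lower in GATA3 KO in both, at -3.81 and -4.81, and SOX2 higher in both, at 1.28 and 1.35. Whether the ratios of the gene-number groups differ was not tested. Class shares moved less. Without the cells above the limit, extraembryonic-positive cells made up 14.2% in place of 16.1% of the WT cells with at least 5000 genes, and 18.3% in place of 18.9% in GATA3 KO.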

How the data were processed

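The authors made 10x Genomics 3′ libraries, aligned the reads to GRCh38 with Cell Ranger 3.0.2 (per the file headers) and deposited raw UMI counts of 33538 genes for each called barcode, without a limit on genes. Samples were grouped by the deposited labels. Detected genes, UMIs and mitochondrial shares were computed per cell, and cells of both gene-number groups were thinned without replacement to 20000 UMIs (seed 42), which left out none. Summed thinned UMIs gave CPM with exact Poisson intervals and log2 ratios (pseudocount 1 CPM, which understates the ratios of low genes) with exact binomial intervals. Shares carry Clopper-Pearson intervals, and differences of shares combine both. The level is 95% throughout. UMIs were collapsed before deposit, so intervals cover counting error only.

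Cells were chosen by a measured value, detected genes, and the cells, gene lists and marker classes were chosen with earlier results of these data known. All values are therefore descriptions. Gene lists numbered 16, with 282 of 284 entries matched by symbol. Genes named were drawn from GATA3, the class genes, per list the 2 of highest level and the 2 of largest ratio, the 8 highest and 8 lowest by the smaller ratio of both libraries among genes of at least 20 CPM in both with 1 direction in both, also in the planned UMI-matched window (mitochondrial, ribosomal protein, XIST and Y-linked genes left out), which leaves out UBE2C and FEN1, and 4 each way by difference between libraries. Not every gene of that set is named in the text, for example FH, CCND1 and MSX1. NPPB, ANKRD1, ACTC1, CER1, UBE2C and others past 1.5-fold, and FEN1 and KRT19, were named after their values were seen. Phases came from scanpy 1.11.5, doublet scores from its Scrublet (30 components), TMM factors from edgeR 4.0.16, and positions from GENCODE on GRCh38 by gene identifier. Thinning, ratios and calls were tested on simulated data. Alternatives were other thinning depths, UMI windows, gene limits, class minimums, Scrublet removal, CPM minimum, pseudocount and scaling.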

Additional observations from a re-analysis of the deposited data

Results flagged for a closer look

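For 13 values the log2 ratio of cells above 7500 genes over cells of 5000 to 7500 had opposite signs in the libraries labelled WT and GATA3 KO, with intervals that did not include 0 in either. With 1 library each, none of these differences was tested. By gene list, the ratio was -0.19 in WT and 0.36 in GATA3 KO for primitive streak, 0.14 and -0.02 for amnion/trophectoderm, 0.29 and -0.04 for nuclear-retained RNA, and -0.10 and 0.66 for TBXT, MIXL1 and EOMES. Of the streak genes singly, MIXL1 was at -0.23 and 0.77 and NODAL at -0.20 and 0.33. The matrix gene POSTN was at 0.76 and -0.17, HAPLN1, which links hyaluronan, at 0.62 and -0.31, and the epithelial keratin KRT8 at 0.36 and -0.06. ID1, a direct target of BMP signalling, was at 0.23 and -0.08. The ratios of MALAT1 were 0.29 and -0.05, those of TCEAL2 -0.22 and 0.19, and those of POU5F1 0.08 and -0.04. Most of these contrasts were not seen among cells of 60000 to 75000 UMIs, where of the single genes MIXL1 alone kept opposite signs (-0.65 and 0.53). In the planned UMI-matched window, with far fewer cells, MIXL1 was at -0.38 and -0.90. Among cells of 60000 to 75000 UMIs POSTN was at -0.91 and -1.77, HAPLN1 at -1.22 and -1.88, KRT8 at -0.46 and -0.77, ID1 at -0.16 and -0.38, NODAL at -0.46 and -0.34, TCEAL2 at 0.10 and 0.23, MALAT1 at 0.11 and 0.18, and POU5F1 at 0.05 and 0.01. The streak genes TBXT, MIXL1 and EOMES together were at -0.58 and -0.02.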

How the results depend on the processing

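Of 144 recomputed values under the alternatives, 59 stayed within the counting interval (or 1.5 times the count) of the value reported, 79 lay outside it and 6 changed sign. The cause of each change was not tested. Values are given for WT and then GATA3 KO unless 1 library is named, as log2 ratios for gene levels and as percent of cells above 7500 genes for pairs of classes. The planned UMI-matched window held 17 and 25 WT cells and 28 and 53 GATA3 KO cells, and the window of 60000 to 75000 UMIs was chosen after seeing the data.

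In the UMI-matched window, S phase was at -0.04 and 0.15, G2/M at 0.16 and 0.42, the 3 streak genes at -0.47 and -1.82, the 5 extraembryonic genes at -1.36 and -2.54, and SOX2 at 1.04 and 0.33. Streak with extraembryonic was at 5.88% and 0%, streak with SOX2 at 0% and 0%, and extraembryonic with SOX2 at 0% and 3.57%. Genes past 1.5-fold numbered 822 higher and 530 lower in WT, and 609 and 237 in GATA3 KO, from these few cells. In the window of 60000 to 75000 UMIs, S phase was at -0.02 and 0.17, G2/M at 0.20 and 0.16, the streak genes at -0.58 and -0.02, the extraembryonic genes at -1.16 and -1.52, and SOX2 at 0.68 and 0.49. Streak with extraembryonic was at 5.78% and 0.95%, streak with SOX2 at 3.25% and 0.95%, and extraembryonic with SOX2 in WT at 0.361%. Genes numbered 43 higher and 27 lower in WT, and 61 and 39 in GATA3 KO.

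Thinning to 10000 UMIs gave G2/M 0.29 in WT, the extraembryonic genes -0.16 in GATA3 KO, streak with extraembryonic 4.55% and 0.237%, streak with SOX2 1.09% and 0.711%, and extraembryonic with SOX2 0.198% and 1.9%. Without thinning, G2/M was at 0.21 and 0.14, the extraembryonic genes at 1.19 in WT, and the pairs at 35.3% and 9.01%, 38.6% and 12.3%, and 17.8% and 28.5%. With comparison cells from 6000 genes, G2/M was at 0.25 and 0.12, and in WT the streak genes were at -0.16 and the extraembryonic genes at 1.05. With cells of at most 8500 genes, WT values were 0.41 for G2/M, -0.04 for the streak genes, 0.47 for the extraembryonic genes and 0.499% for extraembryonic with SOX2, and S phase in GATA3 KO was at -0.15. Without the highest Scrublet scores, G2/M was at 0.31 and 0.21, S phase in GATA3 KO at -0.18, and extraembryonic with SOX2 in GATA3 KO at 6.55%.

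With minimums of 1 UMI (2 for SOX2), the pairs in the same order were at 23.2% and 6.72%, 23.4% and 10.6%, and 8.3% and 23.2%. With minimums of 3 (6 for SOX2) they were at 3.66% and 0.632%, 0.889% and 0.949%, and 0.198% and 2.85%. From 5 CPM, 67 genes were higher and 15 lower in WT, and 3 and 2 in GATA3 KO. No paired analysis was possible because each group was 1 library and no result comes from a test. Depth limits the low genes most.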
